A study of Mus musculus with 6 samples.

Results

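The genes examined here encode CTCF and the cohesin machinery, and they are 10 of the 39017 genes in the deposited count tables. They were taken by symbol, namely Ctcf, Smc1a, Smc3, Rad21, Stag1, Stag2, Nipbl, Mau2, Wapl and Pds5a. Wapl is listed in the tables under its older symbol Wapal and was matched by its gene identifier. PolyA RNA-Seq was read out in 6 libraries of V6.5 mouse embryonic stem cells (mESCs), with 2 libraries in each of 3 groups. In the untreated and the auxin-treated groups, the largest subunit of RNA polymerase II, RPB1, carried a C-terminal mAID-GFP tag on the endogenous gene. These degron cells came from a clonal line in which a doxycycline-inducible cassette at Rosa26 expresses the plant F-box protein OsTIR1. They were a clone homozygous for the tag, picked for efficient degradation, and were given 1 μg/ml doxycycline for 12 h. The untreated group (2 libraries) received no auxin, and the auxin group (2 libraries) received 500 μM indole-3-acetic acid (auxin) for 6 h, which marks the tagged RPB1 for destruction. The third group (2 libraries) was labelled as wild-type V6.5 cells, the line from which the degron cells were derived, and no doxycycline is stated for it. Cells of this line are grown on irradiated fibroblast feeders with LIF, and the study states that harvest came after 2 passages of the feeders.

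CTCF is a zinc finger protein that binds DNA at insulators and the borders of chromatin domains. Cohesin is a ring around DNA built from SMC1A, SMC3 and the kleisin RAD21, with STAG1 or STAG2 bound to the kleisin. The ring is loaded by NIPBL with MAU2, is released by WAPL with the PDS5 proteins, extrudes chromatin into loops that often end at bound CTCF, and holds sister chromatids together until mitosis. In mESCs many chromatin loops end at sites bound by these proteins, and the study asked whether the loss of Pol II disturbs that organization. Whether the mRNAs of the loop machinery themselves changed when Pol II was removed, and whether tagged and wild-type cells carry the same amounts of them, are the comparisons made below.

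All 10 mRNAs were readily measured, with between 1218 and 5540 counts per gene and library out of library totals of 14094022 to 15358714. Every one of them passed the filter on low counts in both comparisons. After 6 h of auxin, 0 of the 10 genes passed the test, which 4.2% of all genes tested did. Relative to the typical gene, 7 of the 10 were higher in wild-type than in untreated degron cells, led by Smc3 and Rad21, and 0 were lower. In that comparison 60.6% of all genes tested were called and 29.9% were higher. The genes Stag1, Stag2 and Mau2 were not called in either comparison.

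Some facts of the libraries bear on these results. A list of 10 pluripotency genes was detected in all libraries, with a summed level of 4450 to 5000 CPM (counts scaled to a library total of 1e+06, here without TMM) in untreated, 3820 to 4020 in auxin-treated and 7130 to 7160 in wild-type libraries. A list of 10 fibroblast feeder genes summed to 216 to 227, 252 to 292 and 155 to 161 CPM in the same order. Of these, Dcn and Lum had 5 counts or fewer in every library, whereas the collagen genes Col1a1 and Col1a2 were readily counted. Col1a1 had 941 and 938 counts in untreated, 1166 and 1380 in auxin-treated and 962 and 915 in wild-type libraries. Col1a2 had 993 and 951, 1275 and 1413, and 567 and 652 in the same order. The extraction protocol given for wild type speaks of retinas. A list of 10 retina genes summed to 8.87 to 9.47 CPM there and to 7.25 to 10.4 CPM in the degron libraries. The photoreceptor genes Crx and Rcvrn had 0 counts in all 6 libraries. Of the 3 retina genes tested in wild type against untreated, edgeR called 2 higher and 0 lower, where 29.9% of all genes tested were higher. These were Rlbp1, with 93 and 91 counts in wild type and 62 and 50 in untreated, and Prph2, with 21 and 11 against 5 and 8. Polr2a, which encodes RPB1, had 6623 and 6568 counts in untreated, 10396 and 10663 in auxin-treated and 6866 and 7129 in wild-type libraries. Against untreated cells it was called higher after auxin (log2 fold change 0.57, edgeR adjusted p = 0.00117) and was not called in wild type. The degron acts on the protein, and the depletion of Pol II cannot be read from the transcript. The wild-type counts stand in a separate table, and doxycycline, which induces OsTIR1, is stated for the degron cells only. Differences of preparation, of doxycycline and of genotype therefore cannot be told apart in that comparison. Neither can fewer cells of a type and less RNA per cell. The study describes its replicates as biological without naming separate cultures, so the p-values measure the spread between these libraries.

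The promoters of a few of these genes are shown because Smc3 and Ctcf were called higher in wild-type than in untreated cells whereas Stag1 was not called. The RefSeq promoter table (GRCm38.p6, the same assembly as mm10) held 7 of the 10 genes, with 8 start sites in all. Rad21, Stag2 and Nipbl were not matched. The RefSeq start of Stag1 lies inside the GENCODE gene, which begins at 100597798, and bases before that earlier start were not searched. The stretches below are the 250 bases before the RefSeq start, written 5′ to 3′ along the gene, and capitals mark matches, in either orientation, to the 8 short motifs named after them.
Smc3, chr19:53600146-53600395, plus strand: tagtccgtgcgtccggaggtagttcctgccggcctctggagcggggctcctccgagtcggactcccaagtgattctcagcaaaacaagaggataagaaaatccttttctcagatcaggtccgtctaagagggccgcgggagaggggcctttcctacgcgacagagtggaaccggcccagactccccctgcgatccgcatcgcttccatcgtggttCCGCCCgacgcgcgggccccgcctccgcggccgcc
Ctcf, chr8:105636288-105636537, plus strand: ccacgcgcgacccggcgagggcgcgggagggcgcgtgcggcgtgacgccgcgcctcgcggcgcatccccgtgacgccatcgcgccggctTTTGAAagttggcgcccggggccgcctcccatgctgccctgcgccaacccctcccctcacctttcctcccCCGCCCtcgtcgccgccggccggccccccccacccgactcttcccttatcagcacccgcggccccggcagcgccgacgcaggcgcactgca
Stag1, chr9:100643198-100643447, plus strand: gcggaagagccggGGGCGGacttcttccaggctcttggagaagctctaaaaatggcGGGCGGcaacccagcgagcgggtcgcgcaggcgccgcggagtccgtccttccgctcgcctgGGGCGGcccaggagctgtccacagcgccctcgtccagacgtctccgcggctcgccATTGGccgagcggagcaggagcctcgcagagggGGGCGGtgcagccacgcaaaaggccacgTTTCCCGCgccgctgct
The motifs searched on both strands were GGGCGG (the Sp or GC box), CCAAT, TTTCCCGC and TTTGGCGC (E2F cores), TTTGAA (the cell cycle homology region), CCGGAAG (the ETS core), TGACGTCA (the cAMP response element) and TATAAA, and no matches in these stretches overlap. GGGCGG occurred in 7 of the 8 start sites of the cohesin and Ctcf genes and in 32.7% of the 32851 RefSeq promoters cut to the same length. In the Smc3 stretch it was the only match, once. The Ctcf stretch held it once and TTTGAA once, which 16.0% of all promoters hold. The Stag1 stretch held GGGCGG 4 times, CCAAT once (33.8% of all promoters) and TTTCCCGC once (0.895% of all promoters). GC content was 64.4% for Smc3, 77.6% for Ctcf and 71.2% for Stag1, compared with a median of 52.4% over all promoters. TTTGGCGC occurred in 1 of the 8 start sites, that of Pds5a (0.417% of all promoters), and CCGGAAG, TGACGTCA and TATAAA in 0. Stag1, which was not called, held more of these matches than Smc3 or Ctcf, and the matches are a description of the letters only.

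The levels of the mRNAs were first compared with each other, per kilobase of merged exons, as CPM after TMM scaling over all 6 libraries. Rad21, the kleisin that closes the ring and is cut by separase in mitosis, was the most abundant in every group. It stood at 54.4 ± 3.21 CPM per kilobase (SD, n = 2) in untreated, 48.3 ± 0.596 in auxin-treated and 90.2 ± 1.69 in wild-type cells. In untreated cells Wapl followed with 35.6 ± 2.37 CPM per kilobase and then the ring arm Smc3 with 32.9 ± 0.457, and these overlapped within 1 SD. Ctcf was at 29.4 ± 1.00 and Smc1a, the other arm of the ring, at 25.4 ± 1.73 CPM per kilobase. In wild-type cells Smc3 took the second place, with 59.2 ± 2.49 CPM per kilobase against 51.8 ± 0.679 for Wapl. The other members lay lower, with Nipbl at 13.1 ± 1.13, Stag2 at 11.5 ± 0.904, Mau2 at 9.60 ± 0.269, Stag1 at 9.57 ± 0.340 and Pds5a at 8.86 ± 0.151 CPM per kilobase in untreated cells. Of these neighbors, Nipbl and Stag2 overlapped within 1 SD, as did Mau2 and Stag1. The upper group of Rad21, Wapl, Smc3, Ctcf and Smc1a and the lower group of the loader, STAG and PDS5 genes were the same in all 3 groups of cells.

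The order within the lower group depended on the length used. Pds5a has 19335 bases of merged exons but 8934 bases in its longest annotated transcript, and Stag1 has 11781 against 6186. Per kilobase of the longest transcript, Pds5a took the sixth place, with 19.2 ± 0.326 CPM per kilobase in untreated cells, and Nipbl the last, with 13.1 ± 1.13. Ctcf, Smc3 and Wapl, at 37.8 ± 1.29, 37.5 ± 0.522 and 37.1 ± 2.47, then overlapped within 1 SD. Rad21 stayed first by either length. In the plot of levels per length the upper and lower groups are separate in both panels.

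**Figure D1:**
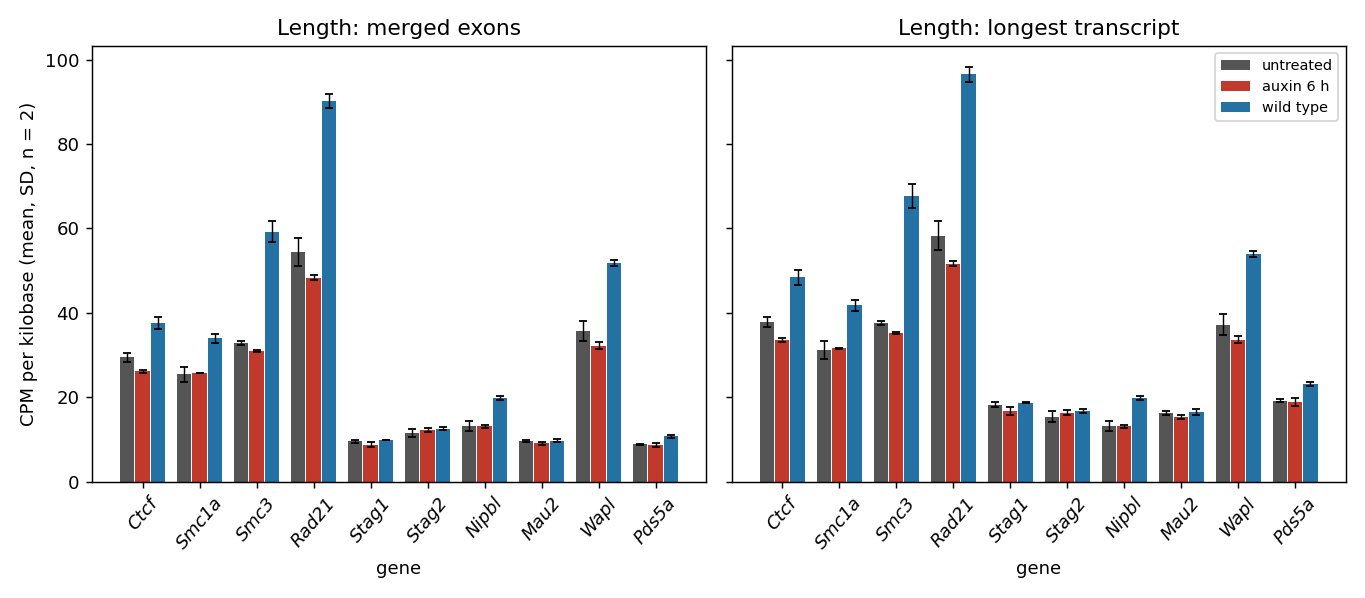
Level of each gene in CPM per kilobase (y axis; bars are means of 2 libraries, error bars SD) in untreated, auxin-treated and wild-type cells, with merged exons (left) or the longest annotated transcript (right) as the length. Rad21 is highest in every group, at 54.4, 48.3 and 90.2 CPM per kilobase of merged exons, and the wild-type bar is the highest of the 3 for each gene.

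STAG1 and STAG2 are alternative subunits at the same place in the complex, so their mRNAs were also set against each other. Per length of merged exons, Stag1 made up 43.5% and 47.5% of the summed Stag1 and Stag2 level in the untreated libraries, 42.1% and 41.4% in the auxin-treated and 44.6% and 43.5% in the wild-type libraries. The wild-type values lay within the range of the untreated ones, and the auxin values just below it. With the longest transcript as the length, the group means were 54.2%, 50.5% and 52.8%, so which paralog was the more abundant mRNA depended on the length. With 2 libraries a group an exact permutation test cannot reach a p under 0.05, and the shares were not tested.

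After 6 h of auxin, the mRNAs of CTCF and cohesin were, relative to the typical gene, close to their level in untreated cells. In edgeR's quasi-likelihood test, adjusted after Benjamini and Hochberg over 16128 genes, 0 of the 10 were called at an adjusted p-value under 0.05, where 4.2% of all genes tested were called, 2.56% higher and 1.64% lower. Of the 10, Ctcf and Rad21 had an unadjusted p under 0.05, as did 3245 of all 16128 genes tested, a similar share, and DESeq2 called 0. The log2 fold changes lay between −0.15 and 0.11 with a median of −0.07, beside a median of 0.00 over all genes tested. Their 95% intervals together spanned −0.30 to 0.27, so for each gene a 2-fold change relative to the typical gene lay outside its interval. TMM takes the typical gene as unchanged, so a change shared by most mRNAs per cell would not show in these values.

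The DNA-binding factor itself and the kleisin had the lowest values. Ctcf, on chromosome 8 from 105636568 to 105682922 (GENCODE vM21, GRCm38), had 2100 and 2030 counts in untreated and 2047 and 1948 in auxin-treated libraries, or 146 and 140 CPM against 128 and 126 CPM after scaling. Both auxin libraries lay below both untreated ones. The difference was −0.15 on the log2 scale, with a standard error of 0.07 (edgeR adjusted p = 0.22). Rad21, on chromosome 15 from 51962240 to 51991747, stood at 240 and 221 CPM in untreated and 206 and 203 CPM in auxin-treated libraries, also a difference of −0.15 on the log2 scale with a standard error of 0.07 (edgeR adjusted p = 0.237). Wapl, the release factor on chromosome 14 from 34673928 to 34747983, stood at 247 and 225 CPM against 218 and 210 CPM, or −0.12 on the log2 scale (edgeR adjusted p = 0.361). Without untreated replicate 2, Rad21 and Wapl passed the threshold, with log2 fold changes of −0.22 and −0.20, so these values rest in part on that library. More genes than in the main fit were called there over all genes tested as well. Without any other single library none of the 10 was called.

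The arms of the ring and its STAG subunits were not called, with intervals on either side of 0. Smc3, on chromosome 19 from 53600398 to 53645833, was at 184 and 180 CPM in untreated and 172 and 170 CPM in auxin-treated libraries, with a log2 fold change of −0.07 (95% interval −0.21 to 0.07). Smc1a, on chromosome X from 152016428 to 152062694, was at 139 and 153 CPM against 148 and 148 CPM, and its groups overlapped (log2 fold change 0.04, 95% interval −0.12 to 0.19). Of the STAG subunits, Stag1, on chromosome 9 from 100597798 to 100959375, stood at 110 and 116 CPM against 107 and 99.0 CPM, a log2 fold change of −0.11 (95% interval −0.26 to 0.04). Stag2, on chromosome X from 42149317 to 42277185, stood at 100 and 89.8 CPM against 104 and 98.3 CPM, a log2 fold change of 0.11 (95% interval −0.06 to 0.27). The difference between the STAG genes was not tested.

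By the same scaling, the loader and the remaining release factor were also near their untreated levels. Nipbl, whose protein loads cohesin and drives loop extrusion, is on chromosome 15 from 8290617 to 8444463 and stood at 131 and 116 CPM in untreated and 126 and 121 CPM in auxin-treated libraries, or 0.02 on the log2 scale (95% interval −0.15 to 0.18). Its partner Mau2, on chromosome 8 from 70016123 to 70042734, stood at 89.4 and 86.0 CPM against 80.9 and 84.5 CPM, a log2 fold change of −0.07 (95% interval −0.21 to 0.08). Pds5a, on chromosome 5 from 65605721 to 65698273, stood at 173 and 169 CPM against 175 and 163 CPM, a log2 fold change of −0.00 (95% interval −0.15 to 0.15). In CPM, 6 of the 10 genes had both auxin libraries below both untreated ones and 0 had both above. Over all genes tested these shares were 28.4% and 22.3%, and 50.8% of genes had groups that did not overlap, so such a separation was common in these libraries.

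**Figure D2:**
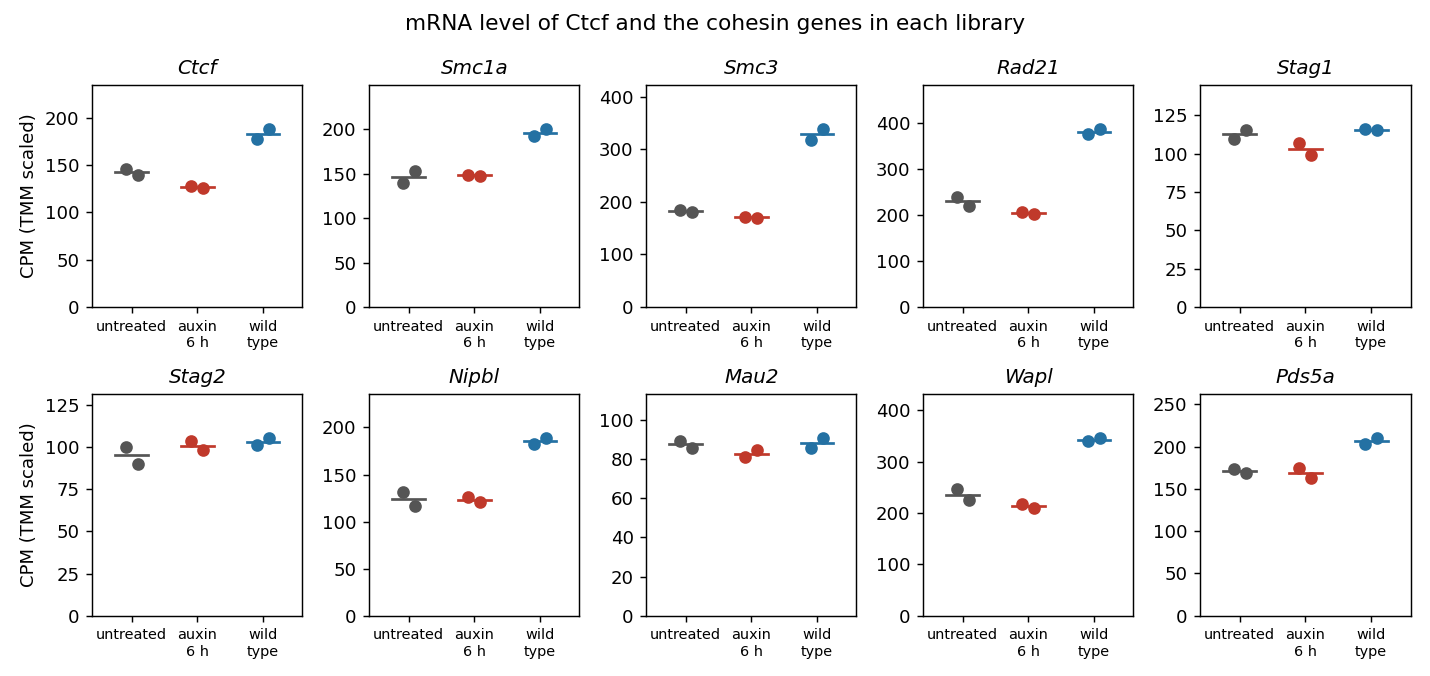
CPM after TMM scaling over all libraries (y axis, from 0) of each of the 10 genes in each library, with points for libraries and a line at the mean of the 2 libraries of a group. Auxin-treated and untreated points lie close together in every panel, whereas the wild-type points stand apart for Smc3 (318 and 338 CPM against 184 and 180) and Rad21 (377 and 387 against 240 and 221) but not for Stag1 or Mau2.

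Genes that act beside CTCF and cohesin were not called after auxin either. In all, 5 lists held 48 such genes: 18 regulators of cohesin and of sister chromatid cohesion, 5 germline paralogs, 8 condensin subunits, 7 genes of the SMC5/6 complex with Smchd1, and 10 other looping and CTCF-associated factors. All 48 were tested, and edgeR called 0 of them at an adjusted p under 0.05, where 4.2% of all genes were called. Of the 48, 9 had an unadjusted p under 0.05, a share close to the 3245 of 16128 over all genes, and DESeq2 called 0. The list medians of the log2 fold change were −0.07 for the regulators, −0.10 for the germline paralogs, −0.02 for condensin, 0.02 for the SMC5/6 genes and −0.02 for the other factors. The lowest adjusted p-values, singled out after the values were seen, belonged to genes that protect cohesion. Cdca5 (sororin, which counters WAPL) had 732 and 889 counts in untreated and 697 and 680 in auxin-treated libraries, or −0.34 on the log2 scale (edgeR adjusted p = 0.0564). Sgo1 (shugoshin, the guard of centromeric cohesin) had 864 and 971 counts against 816 and 802, or −0.28 on the log2 scale (edgeR adjusted p = 0.0602). Left-out libraries moved the count of 0, since calls among the 48 appeared when either untreated library was left out. In both of these fits the calls over all genes tested rose as well. Of 15 mitotic genes, set beside these because cohesin is regulated through the cell cycle, 0 were called higher and 1, Aurka, lower, with a log2 fold change of −0.36. Among the pluripotency genes 4 of 10 (Sox2, Nanog, Esrrb and Zfp42) were called lower and 0 higher, and of the feeder genes Col1a2 was called higher. Their part in these results was not tested.

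Relative to the typical gene, most of the loop machinery was expressed more strongly in wild-type cells than in untreated degron cells. By the edgeR test over 15778 genes, 7 of the 10 genes were higher at an adjusted p-value under 0.05, where 29.9% of all genes tested were higher, 30.7% lower and 60.6% called in all. No gene of the 10 was lower, and 0 passed a log2 fold change of 1 as well, which 18.1% of all genes did. The median log2 fold change of the 10 was 0.38, beside −0.01 over all genes tested. DESeq2 called the same number, 7 higher and 0 lower. The summed level of the 10 was 2010 to 2090 CPM of library totals in wild-type and 1490 to 1590 CPM in untreated libraries.

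The ring subunits Smc3 and Rad21 differed most. Smc3 had 2636 and 2622 counts in untreated and 4514 and 4835 in wild-type libraries, or 184 and 180 CPM against 318 and 338 CPM. Both wild-type libraries lay well above both untreated ones, and the difference was 1.79-fold (log2 fold change 0.84, standard error 0.06, adjusted p = 4.8e-07 by edgeR). Rad21 had 3438 and 3208 counts against 5345 and 5540, a 1.65-fold difference (log2 fold change 0.72, standard error 0.06, adjusted p = 2.03e-06 by edgeR). Smc1a, the partner arm of Smc3, had 1997 and 2231 counts against 2721 and 2862, which was 1.33-fold (log2 fold change 0.41, standard error 0.07, adjusted p = 0.000247 by edgeR). The 95% interval of Smc1a, 0.27 to 0.56, ended below that of Smc3, which began at 0.71.

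Regulators of the ring followed. Nipbl had 1881 and 1689 counts in untreated and 2595 and 2703 in wild-type libraries, 1.49-fold higher (log2 fold change 0.58, adjusted p = 2.8e-05 by edgeR). Wapl, which opposes it, had 3540 and 3268 counts against 4820 and 4956, 1.45-fold higher (log2 fold change 0.53, adjusted p = 2.51e-05 by edgeR). Pds5a had 2484 and 2460 counts against 2879 and 3008, 1.20-fold higher (log2 fold change 0.26, adjusted p = 0.0025 by edgeR), and it was not called without wild-type replicate 2 (adjusted p = 0.0673 by edgeR). Ctcf had 2100 and 2030 counts against 2524 and 2691, 1.27-fold higher (log2 fold change 0.35, standard error 0.06, adjusted p = 0.000565 by edgeR). Its counts share the most sequence with other genes among the 10, since 4.91% of the 100-base stretches of its transcripts also occur in transcripts of other genes, compared with at most 0.425% for the others, and Agrp, Gm5914 and Gm5915 lie opposite it. Genes on the same strand overlap Stag1 (3 genes) and Pds5a (2 genes), and whether reads were assigned by strand is not given in the sources used here.

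The STAG genes and Mau2 were not called. Stag1 had 1576 and 1681 counts in untreated and 1645 and 1655 in wild-type libraries, a log2 fold change of 0.03 (95% interval −0.11 to 0.17). Mau2 had 1282 and 1250 counts against 1218 and 1300, a log2 fold change of 0.00 (95% interval −0.15 to 0.15). Stag2 had 1439 and 1306 counts against 1437 and 1510, a log2 fold change of 0.11 (95% interval −0.05 to 0.27, adjusted p = 0.199 by edgeR), and it was called without untreated replicate 1 (adjusted p = 0.0215 by edgeR). The upper ends of these intervals lay below the lower ends for Smc3, Rad21, Nipbl and Wapl. Nipbl and Mau2, whose proteins form a single loader, therefore had intervals that did not meet, 0.43 to 0.73 and −0.15 to 0.15. In CPM, 8 of the 10 genes had both wild-type libraries above both untreated ones, the 7 called genes and Stag2, and 0 had both below. Over all genes tested 40.5% had both above and 81% had groups that did not overlap.

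**Figure D3:**
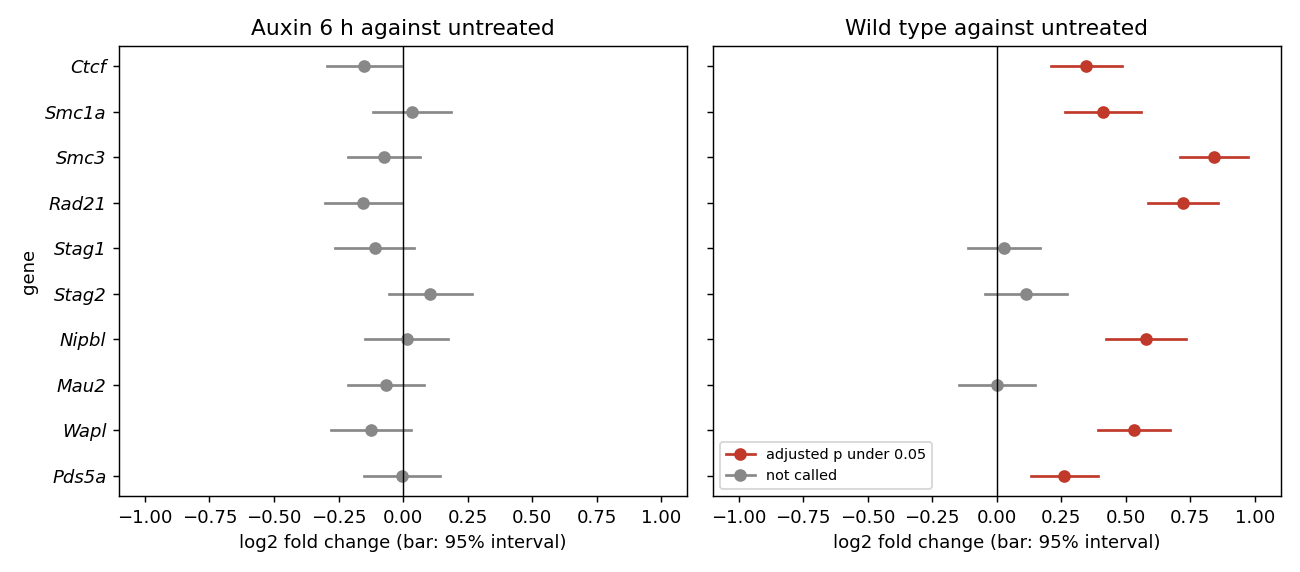
Log2 fold change of each gene (x axis; points are edgeR estimates, bars 95% intervals) after auxin (left) and in wild type (right), both against the same untreated libraries, with called genes in red. All 10 left-hand points lie between −0.15 and 0.11, and on the right Smc3 (0.84) and Rad21 (0.72) lie farthest from 0 while Stag1, Stag2 and Mau2 are not called.

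Taking the 3 groups in order of mean CPM, wild type was the highest for each of the 10 genes, and this step was larger than the spread of the libraries for the 7 called genes. For Stag1, Stag2 and Mau2 the wild-type libraries overlapped those of the next group. Auxin-treated cells were the lowest for 8 genes, of which Nipbl and Pds5a overlapped the untreated libraries. For Smc1a and Stag2 untreated cells had the lowest mean, again with overlapping libraries.

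The scaling matters for both comparisons, and most for wild type. TMM takes the typical gene as unchanged, and the sources used here name no spike-in. The 13 mitochondrial mRNAs, transcribed by the polymerase of the mitochondrion, took 0.341% to 0.401% of the counts in untreated, 0.399% to 0.441% in auxin-treated and 1.5% to 1.53% in wild-type libraries. With wild-type libraries scaled to these mRNAs, the median log2 fold change of all tested genes was −2.10 and all 10 genes were lower in wild-type cells. Relative to that median, Smc3 was at 0.85, Rad21 at 0.72, Ctcf at 0.35, Stag1 at 0.04 and Mau2 at 0.01, so these genes stood in the same order against the typical gene as with TMM. After auxin that scaling moved the median of all tested genes to −0.17, with Ctcf and Rad21 at −0.15 and −0.16 relative to it.

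The genes that work with cohesin and CTCF were mostly higher in wild-type cells as well. Of the 48 genes in the 5 lists, 40 were higher, 5 lower and 3 not called by edgeR, where 29.9% of all genes tested were higher and 30.7% lower. Regulators of cohesin were higher for 16 of 18 genes and lower for 2, with a median log2 fold change of 0.59. The most different were Sgo2a, Esco2 and Pttg1. Sgo2a, a second shugoshin, had 354 and 385 counts in untreated and 1106 and 1074 in wild-type libraries (log2 fold change 1.57). Esco2, an acetyltransferase that establishes sister chromatid cohesion in S phase, had 1285 and 1286 against 3267 and 3536 (log2 fold change 1.41). Pttg1, which encodes securin, had a log2 fold change of 1.15. Lower were Hdac8, the deacetylase that recycles SMC3, with 181 and 159 counts against 85 and 83 (log2 fold change −1.01), and Chtf8, a subunit of an alternative clamp loader (−0.31). Pds5b, singled out as the paralog of Pds5a, was higher by 0.34 on the log2 scale. All 8 condensin genes were higher, with a median of 0.70, led by Ncaph (1.01), Ncapd2 (0.97) and Smc2 (0.78). These compact mitotic chromosomes with SMC subunits related to those of cohesin.

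Of the SMC5/6 genes and Smchd1, 5 of 7 were higher and 1 lower, with a median of 0.52. Nsmce4a (0.73), Smchd1 (0.71), which acts on the inactive X chromosome, and Smc6 (0.59) were the most different among the higher ones, and the SUMO ligase gene Nsmce2 was lower (−0.54). Other looping and CTCF-associated factors were higher for 7 of 10 genes and lower for 1, with a median of 0.39. Top2a, a topoisomerase of dividing cells, led them with 1.12, followed by Parp1 (0.61) and the looping factor Yy1 (0.51), and Ldb1 was lower (−0.20). Of the germline paralogs 4 of 5 were higher and 1 lower. Stag3 had 1951 and 1887 counts against 2432 and 2473, Smc1b 582 and 538 against 956 and 957, Rec8 236 and 220 against 337 and 401, and Ctcfl, the paralog of Ctcf, 22 and 16 against 45 and 30. Rad21l was the lower one, with 17 and 12 counts against 1 and 4. Stag3 and Smc1b, known for meiosis, were thus readily counted in these stem cells.

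Mitotic genes differed along with these lists. Of 15 of them, 14 were higher in wild-type cells and 0 lower, with a median log2 fold change of 0.97, and their summed level was 4200 CPM in each wild-type library and 2140 to 2150 CPM in the untreated ones. Pluripotency genes were higher for 7 of 10 and lower for 1, and feeder genes lower for 5 of 8 tested and higher for 1. The part of cell cycle, feeder cells, doxycycline or culture in the differences of the cohesin genes was not tested.

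**Figure D4:**
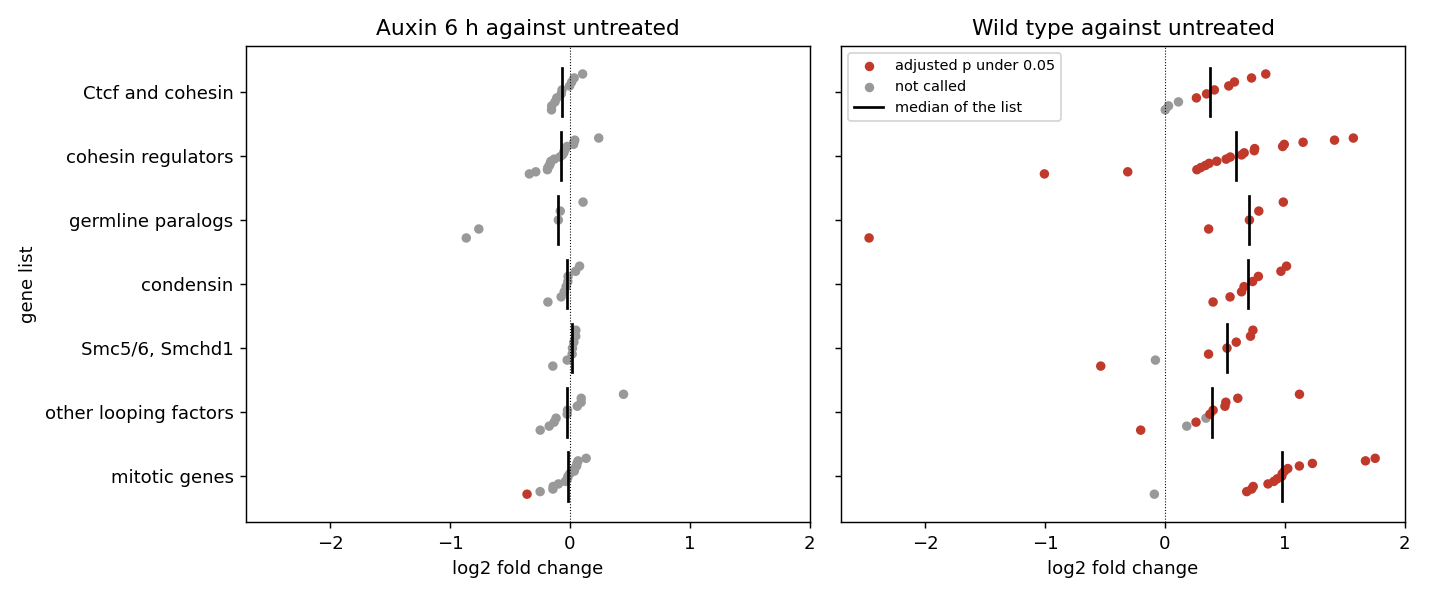
Log2 fold change (x axis) of each tested gene of the 10 cohesin and Ctcf genes, the 5 lists of associated genes and the mitotic genes (rows), after auxin (left) and in wild type (right), each against untreated cells; black bars are list medians and red points are called genes. After auxin the only red point is Aurka in the mitotic list, and in wild-type cells the medians run from 0.38 for Ctcf and cohesin to 0.97 for the mitotic genes.

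Across the 6 libraries, the genes whose centered log2 CPM followed that of Ctcf most closely, among the 10969 genes averaging at least 100 counts, were Ahctf1, Cul5 and Mettl4, with root mean square distances of 0.02, 0.02 and 0.03. Of the cohesin genes Wapl was the nearest to Ctcf, at 0.09 and rank 696, and Smc3 was the farthest, at 0.22. With 3 groups of 2 libraries such distances mainly compare group means.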

How the data were processed

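PolyA RNA-Seq was analysed in 6 libraries, 2 each of untreated Pol II degron, auxin-treated Pol II degron and wild-type mESCs, grouped by their titles. Reads were mapped by the authors with HISAT2 2.1.0 against mm10 and counted per GENCODE gene with salmon and htseq-count. The annotation release and strand setting are not given in the sources used here. The authors deposited raw counts of 39017 genes, with the degron and wild-type libraries in separate tables that hold the same genes. The deposited degron table also holds the authors' normalized means (a signal per group), fold changes as ratio and log2, and p-values, none of which was used. Columns of per-sample values that match no sample, 2 in all, were not used.

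Each comparison was fitted on its own 4 libraries with edgeR 4.0.16 (R 4.3.3), filterByExpr with a minimum count of 10, TMM, glmQLFit and glmQLFTest, and Benjamini-Hochberg adjustment over all genes tested. Genes were called at an adjusted p under 0.05. Standard errors are the log2 fold change over the root of its F statistic, with 95% intervals from the t distribution of the same fit. Both comparisons share the untreated libraries and were not set against each other. Levels are CPM after TMM over all libraries, divided by length in kilobases from GENCODE vM21 where genes are compared. Library totals were 14094022 to 15358714 counts, and counting error is small for these genes. On simulated data with 200 genes changed 2-fold, the procedure recovered 94% in the auxin setting (16048 genes tested) and 92% in the wild-type setting (15640 genes tested). It also called 6 and 8 unchanged genes. The simulation gave every gene the same dispersion, not estimated from these libraries. Smaller changes, such as those of the 10 genes, were not simulated.

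The genes and lists were chosen with earlier results of these data known. Named genes are the 10 genes, Polr2a, up to 3 called genes with the largest change per list and direction, the germline paralogs, and the 3 genes nearest to Ctcf in pattern. Alternatives were DESeq2 1.42.0, its size factors, library totals, mitochondrial scaling, other filters, all groups in one fit, the replicate number as a block, each library left out and another gene length. Genes named outside this rule (Cdca5, Sgo1, Aurka, Pds5b and marker genes) were singled out after their values were seen.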

Additional observations from a re-analysis of the deposited data

How the results depend on the processing

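In the wild-type comparison Ctcf, Smc1a, Smc3, Rad21, Nipbl and Wapl were called higher under every alternative except scaling to the mitochondrial mRNAs, and in the auxin comparison none of the 10 genes was called under any alternative that kept all libraries. Leaving out 1 library gave 0 to 2 called members, 0 to 6 called associated genes and 179 (without auxin replicate 2) to 2724 (without untreated replicate 1) called genes after auxin. Such a fit assumes that the lone library of a group varies like the other group. The count of all genes called after auxin, 677 by edgeR, was 236 by DESeq2, 219 with mitochondrial scaling, 55 with no filter, 432 with at least 10 counts in every library and 1235 with all groups in one fit. Of the called genes, 61% were higher with TMM and 76.3% with mitochondrial scaling after auxin, against 49.3% and 0.477% in the wild-type comparison, where 15308 genes were called with mitochondrial scaling. All 48 associated genes were called lower in wild type with that scaling, and 39 to 45 were called under the other alternatives. With all groups in one fit, 2 associated genes were called after auxin. Some alternatives also use fewer libraries or a different filter, and the cause of these shifts was not tested.

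The replicate numbers of the labels do not name a shared culture, and deviations of same-numbered libraries correlated at 0.07 in the auxin and −0.03 in the wild-type comparison. With the replicate number as a block, 1930 genes and 3 associated genes were called after auxin, and no call of the 10 genes changed in either comparison.

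Directions that turned belonged to uncalled genes near 0, except under mitochondrial scaling. After auxin that scaling gave −0.13 for Smc1a, −0.0674 for Stag2 and −0.16 for Nipbl. Nipbl was at −0.0068 with no filter and −0.0041 with all groups in one fit, and Pds5a was at 0.0134 with library totals and 0.005 with at least 10 counts in every library. Leaving out single libraries gave −0.0375 to 0.10 for Smc1a, −0.0744 to 0.10 for Nipbl and −0.0587 to 0.0481 for Pds5a. In the wild-type comparison mitochondrial scaling gave −1.75 for Ctcf, −1.68 for Smc1a, −1.26 for Smc3, −1.38 for Rad21, −2.06 for Stag1, −1.99 for Stag2, −1.52 for Nipbl, −2.10 for Mau2, −1.57 for Wapl and −1.84 for Pds5a, against a median of −2.10 over all genes. Library totals gave −0.0275 for Stag1 and −0.0555 for Mau2, and at least 10 counts in every library gave −0.0151 for Mau2. Leaving out single libraries gave −0.0065 to 0.0642 for Stag1 and −0.0314 to 0.0514 for Mau2. With the longest transcript as length the Stag1 share was 54.2% in untreated, 50.5% in auxin-treated and 52.8% in wild-type cells, from 45.5%, 41.8% and 44.0% with merged exons.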
